A study of Ovis aries with 10 samples.

Results

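The genes described here encode inhibin, activin, their extracellular binding proteins and their receptors, in adrenal glands of sheep fetuses after exposure to endotoxin. They were chosen by gene symbol, with the values of this contrast already known: the hormone subunits INHA, INHBA and INHBB, the binding proteins FST and FSTL3, the type I receptors ACVR1 and ACVR1B, the type II receptors ACVR2A and ACVR2B, and the co-receptor TGFBR3. Of these 10 symbols 9 have a row, and each has 1 row, among the 19316 rows of the authors' deposited table of differential expression. INHBB, the beta B subunit, has no row under that symbol and is not analysed here. Messenger RNA was sequenced in 10 libraries of whole adrenal gland at 102 days of gestation. In 5 of them the labels give an injection of endotoxin, and in the other 5 an injection of saline, the control. Endotoxin is bacterial lipopolysaccharide, which provokes inflammation. Both groups hold female and male fetuses, no group carries a genetic change by the labels, and the route and dose are not given in the sources used here.

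Inhibins and activins are dimers built from a shared set of subunits. The alpha subunit, from INHA, joins a beta subunit to make inhibin, while beta subunits joined to each other make activin. Activin binds a type II receptor, which recruits a type I receptor and signals through SMAD2 and SMAD3, whereas inhibin, held by the co-receptor betaglycan, occupies type II receptors without signalling. Follistatin and follistatin-like 3 bind activin outside the cell and keep it from its receptors. The alpha subunit is made in the adrenal cortex as well as in the gonads, and in cultured human adrenal cells it is raised by ACTH. Mice that lack Inha develop tumours of the adrenal cortex after removal of the gonads.

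The count table held between 12494386 and 18324516 estimated counts per library, and the totals did not separate the groups (exact two-sided permutation p = 0.968). Control replicate 5 stood apart in the TPM table, with 9 gene IDs at 5 TPM or more and at least 20 times every other library, against at most 2 such IDs in any other library. TPM is a measure of abundance per transcript length within a library, so levels of different genes can be compared on it. The 20781 gene IDs of the tables with a value per library are paired with a symbol in none of the sources used here. These IDs carry the cattle prefix ENSBTAG. Rows without a symbol in the authors' deposited table carry the sheep prefix ENSOART, so the IDs are not the same. The members therefore have a mean per group and an error of the change, but no value per library, and no result below could be recomputed without control replicate 5. Groups stand in the authors' deposited table as A and B. B was read as endotoxin, after the series title. As a check, the TPM table with labelled libraries holds 16 gene IDs at least 8-fold higher and 3 at least 8-fold lower with endotoxin. The authors' deposited table of A and B holds 19 rows that much higher in B and 3 that much lower. If that reading were wrong, every direction below would turn. Cortical and chromaffin markers were abundant in the authors' deposited table, where STAR had 1027 TPM in the endotoxin group and 481 TPM in the control group and TH had 1343 TPM in the endotoxin group and 1254 TPM in the control group. Markers of kidney, liver or gonad summed to 2.14 TPM in the endotoxin group and 2.84 TPM in the control group in the authors' deposited table. The gonadal receptor gene FSHR was listed at 0 TPM in the endotoxin group and at 0.0200 TPM in the control group there, and AMH had no row.

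INHA was higher in the endotoxin group, and INHBA, whose product joins it to form inhibin A, did not pass and had a negative value. In the authors' deposited table INHA averaged 91.9 TPM in the endotoxin group and 39.7 TPM in the control group. Its log2 change was 1.28 ± 0.35 (SE), or 2.43-fold with a 95% interval of 1.51 to 3.91, and its adjusted p was 0.0226 in the authors' deposited table. A log2 change is given throughout as endotoxin over control, on the scale of the authors' count model, where it equals the product of their score and standard error. INHBA, the beta A subunit of inhibin A and activin A, averaged 5.22 TPM in the endotoxin group and 9.13 TPM in the control group in the authors' deposited table. Its log2 change of -0.68 ± 0.37 (SE) had a 95% interval of -1.41 to 0.05 and an adjusted p of 0.445 in the authors' deposited table. The alpha subunit mRNA thus stood at 17.6 times the beta A mRNA in the endotoxin group and at 4.35 times in the control group, as ratios of the group means in TPM. The log2 change of INHA exceeded that of INHBA by 1.96, a difference with no error of its own, since both come from the same libraries and the covariance is not given. In whole glands a change in the number of cells of a type and a change in RNA per cell cannot be told apart. These are levels of mRNA, and no dimer or secreted hormone was measured.

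**Figure D1:**
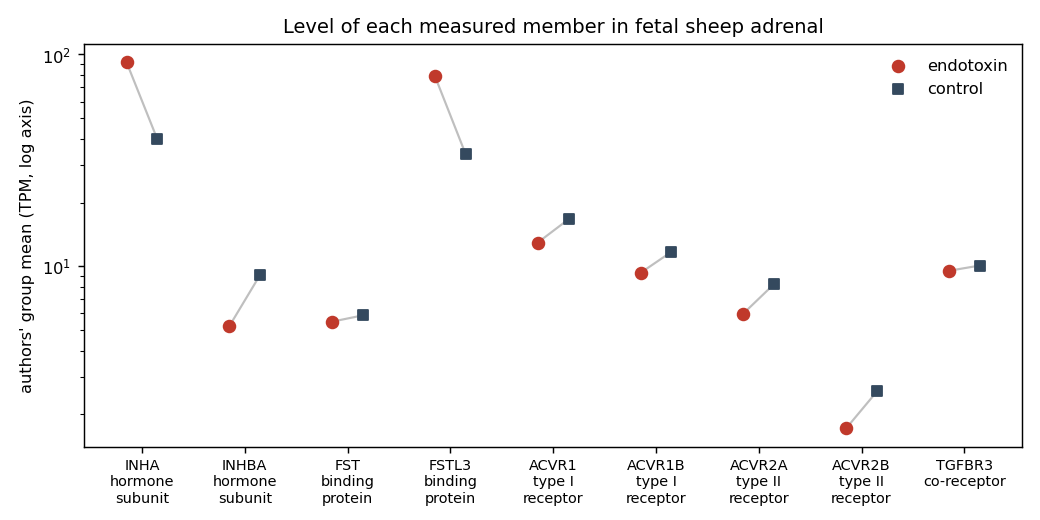
Mean level of each measured gene in the endotoxin group (red circles, left) and the control group (dark squares, right), in TPM on a log axis, from the authors' deposited table, ordered by role; no error per group is given there. INHA and FSTL3 lie highest in both groups and are the genes whose endotoxin mean is more than 2 times the control mean.

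Of the activin-binding proteins FSTL3 was called higher and FST was not called, and the difference between their changes was not tested. FSTL3, a secreted glycoprotein that binds activin and myostatin, averaged 79.0 TPM in the endotoxin group and 33.7 TPM in the control group in the authors' deposited table. Its log2 change was 1.33 ± 0.38 (SE), or 2.51-fold with a 95% interval of 1.49 to 4.21, with an adjusted p of 0.0370 in the authors' deposited table. FST, follistatin itself, averaged 5.49 TPM in the endotoxin group and 5.87 TPM in the control group in the authors' deposited table. For FST the log2 change was 0.01 ± 0.39 (SE), with a 95% interval of -0.75 to 0.77 and an adjusted p of 0.997 in the authors' deposited table. That interval still spans changes between 0.597-fold and 1.70-fold, so the value does not show that follistatin mRNA was equal in the groups. FSTL3 stood at 14.4 times FST in the endotoxin group and at 5.74 times in the control group, as ratios of group means in TPM.

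None of the receptor genes passed an adjusted p of 0.05, and all 4 type I and type II receptors had a negative log2 change. Among all rows with a p and a mean of at least 1 TPM, 48.3% had a negative log2 change. ACVR1, a type I receptor that signals mainly for BMPs and also binds activin, averaged 13.0 TPM in the endotoxin group and 16.7 TPM in the control group in the authors' deposited table. Its log2 change of -0.22 ± 0.11 (SE) carried the smallest error among the members, with a 95% interval of -0.44 to 0.003 and an adjusted p of 0.397 in the authors' deposited table. ACVR1B, also called ALK4, the main type I receptor of activin, averaged 9.32 TPM in the endotoxin group and 11.7 TPM in the control group, with a log2 change of -0.18 ± 0.28 (SE; adjusted p = 0.914) by the authors' deposited table. The type II receptors bind the ligand first. ACVR2A averaged 5.99 TPM in the endotoxin group and 8.26 TPM in the control group, with a log2 change of -0.34 ± 0.17 (SE) by the authors' deposited table. Its unadjusted p was 0.0457 and its adjusted p 0.370 in the authors' deposited table. ACVR2B was the lowest member in both groups, at 1.72 TPM in the endotoxin group and 2.57 TPM in the control group, with a log2 change of -0.41 ± 0.24 (SE; adjusted p = 0.503) in the authors' deposited table. TGFBR3, or betaglycan, which presents inhibin to type II receptors and also binds TGF-beta, averaged 9.53 TPM in the endotoxin group and 10.1 TPM in the control group in the authors' deposited table. Its log2 change was 0.04 ± 0.29 (SE), with a 95% interval of -0.53 to 0.61 and an adjusted p of 0.981 in the authors' deposited table. Of the receptor pairs, ACVR2A stood at 3.48 times ACVR2B in the endotoxin group and at 3.22 times in the control group, and ACVR1 at 1.39 times ACVR1B in the endotoxin group and at 1.43 times in the control group, as ratios of group means in TPM.

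**Figure D2:**
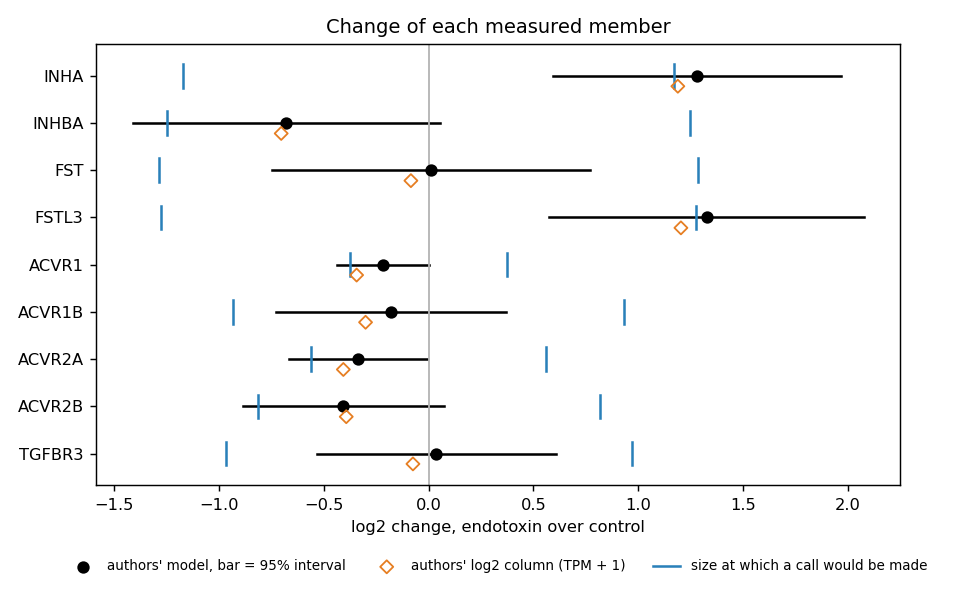
Log2 change, endotoxin over control, of each measured gene in the authors' count model (black points, with 95% intervals as bars) and in the authors' log2 column of mean TPM plus 1 (open diamonds). Blue ticks mark the size at which a change with that error would have been called at an adjusted p of 0.05, and the points of INHA and FSTL3 lie past their ticks.

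In the order of levels, INHA came first and FSTL3 second in both groups, ACVR1 at rank 3 and ACVR2B last, in the authors' deposited table. INHBA stood at rank 8 of 9 in the endotoxin group and at rank 6 in the control group. Without values per library no spread can be put on these ranks, and TGFBR3 and ACVR1B, at 9.53 and 9.32 TPM in the endotoxin group, are 1 pair of neighbours whose order has no test. Over all rows of the authors' deposited table INHA lay at percentile 90.4 of mean level and FSTL3 at percentile 89.0, while the receptors lay between percentile 33.3 for ACVR2B and percentile 68.4 for ACVR1.

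Of the 9 measured members 2 were called at an adjusted p under 0.05, both higher with endotoxin, where 330 of 19236 rows with a p, or 1.72%, were called in the authors' deposited table. Higher with endotoxin were 1.29% of those rows and lower 0.426%. Because the members were chosen on this contrast, the count is a description. By unadjusted p INHA ranked 220 and FSTL3 ranked 277 among the rows of the authors' deposited table. All 9 had a mean of at least 1 TPM. Their median log2 change was -0.18, against 0.01 over the 14348 rows with a p and a mean of at least 1 TPM. A negative value was found in 5 of the 9, against 48.3% of those rows. On the authors' log2 column of mean TPM plus 1, whose median over these rows is -0.10, 7 of the 9 were negative, FST at -0.08 and TGFBR3 at -0.07 among them, against 66.0% of those rows.

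**Figure D3:**
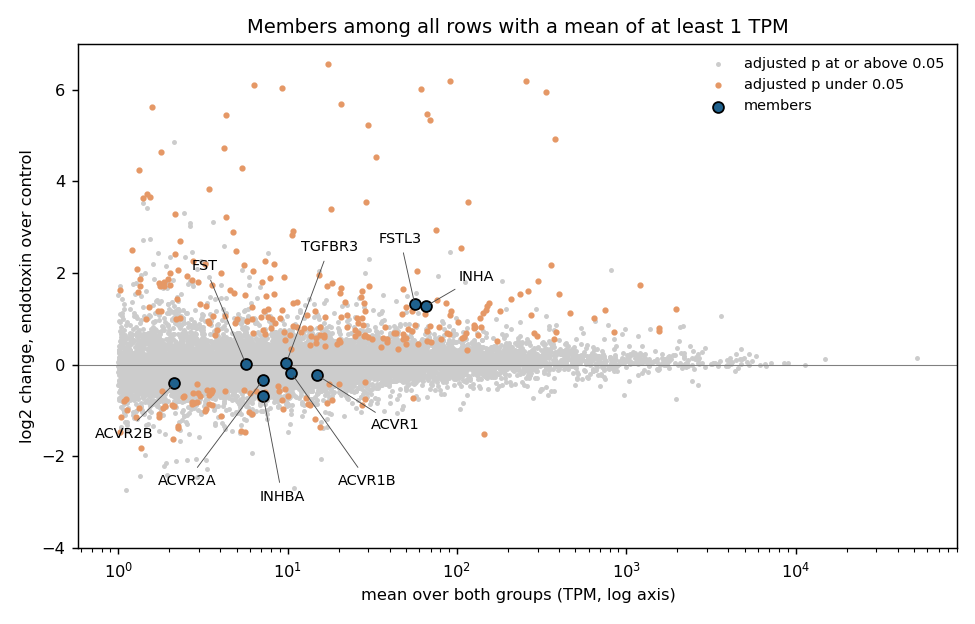
Log2 change, endotoxin over control, against the mean over both groups in TPM (log axis) for the rows averaging at least 1 TPM; orange points have an adjusted p under 0.05, blue points are the members, and 2 rows lie outside the axis. INHA and FSTL3 lie near 1.3 at about the same level, and the other members lie between -0.68 and 0.04.

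The errors of the members differed by their level and beyond it. Among the 500 rows nearest to INHA in mean level the median standard error was 0.17, and 93.6% of them had a smaller error than the 0.35 of INHA. For FSTL3 this share was 96.0%, for INHBA 91.0% and for FST 88.6%. ACVR1 was at the other end, with 5.80% of the 500 rows nearest to it below its error of 0.11. The measured hormone subunits and binding proteins thus had larger errors than most genes of like abundance. So did the receptor ACVR1B and the co-receptor TGFBR3, with shares of 82.0% and 83.6%. ACVR2A and ACVR2B, like ACVR1, had smaller errors than most genes of like abundance. In the authors' deposited table the smallest absolute score called was 3.33. With its own error INHBA would have needed a log2 change of 1.25, or 2.37-fold, to be called, and FST 1.29, or 2.44-fold. ACVR1 would have needed 0.37, or 1.30-fold, ACVR2A 0.56 and ACVR2B 0.82. These sizes refer to the estimated change, and are not the smallest true change that could have been called.

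**Figure D4:**
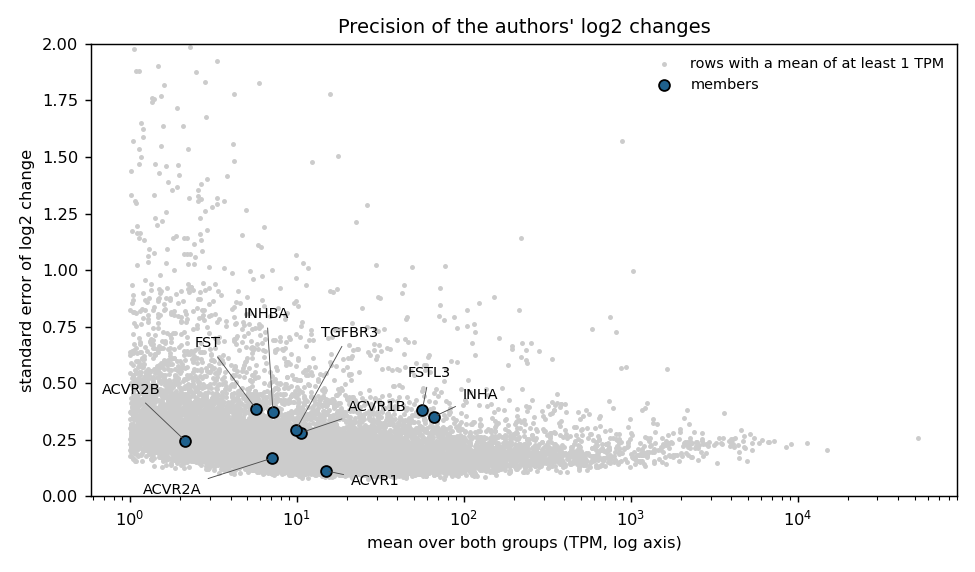
Standard error of the log2 change against the mean over both groups in TPM (log axis) for the rows averaging at least 1 TPM in the authors' deposited table, with the members in blue and 19 rows outside the axis. INHA, FSTL3, INHBA, FST, TGFBR3 and ACVR1B lie in the upper part of the cloud at their level, and ACVR1 lies at its lower edge.

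Among 79 other genes of the pathway, listed by role, 66 had a row and 1 was called, in the authors' deposited table. Over all rows with a p 1.72% were called there, and 1 of 66 lies near that share. The called gene was INHBE, which encodes the beta E subunit and is known in human and mouse mainly from liver. INHBE averaged 2.87 TPM in the endotoxin group and 0.859 TPM in the control group, with a log2 change of 1.81 ± 0.53 (SE; adjusted p = 0.0404) in the authors' deposited table. It was the 1 call among 7 measured ligands of the activin and GDF branch. The growth factors GDF11 and MSTN, ligands that FSTL3 and follistatin also bind, were at 0.00 ± 0.44 and -0.23 ± 0.55 (SE), with MSTN under 1 TPM in both groups, in the authors' deposited table.

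None of the 11 other receptors and co-receptors passed, by the authors' deposited table. Of the 11, 2 had an unadjusted p under 0.05 and 9 had a negative log2 change, and their median was -0.12. Over all rows with a p, 12.9% had an unadjusted p under 0.05 and 49.1% had a negative log2 change. Those shares are the background for such counts in this list and in those below. Among the 11 the largest value was that of ENG, endoglin, an endothelial co-receptor, at 0.44 ± 0.17 (SE; adjusted p = 0.201). The lowest was that of BMPR1A, a type I receptor of BMPs, at -0.54 ± 0.18 (SE; adjusted p = 0.0954) by the authors' deposited table. Of 9 other antagonists and binding proteins none passed, and 2 had an unadjusted p under 0.05, in the authors' deposited table. There NOG, noggin, which binds BMPs, was at 0.91 ± 0.41 (SE; adjusted p = 0.297), and WFIKKN2, which binds myostatin and GDF11, at -0.51 ± 0.21 (SE; adjusted p = 0.224). Among the 16 SMADs and intracellular regulators none passed, 3 had an unadjusted p under 0.05 and 10 were negative in the authors' deposited table. SMAD6, an inhibitory SMAD, was highest at 0.58 ± 0.24 (SE; adjusted p = 0.240), and SKIL, a SMAD co-repressor, lowest at -0.69 ± 0.22 (SE; adjusted p = 0.0643), in the authors' deposited table. SMAD3, which carries the activin signal, and the inhibitory SMAD7 had no row under those symbols.

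The 4 proprotein convertases, which cut ligand precursors, did not pass either, and 1 had an unadjusted p under 0.05. FURIN was at 0.33 ± 0.16 (SE; adjusted p = 0.356) and PCSK6 at -0.16 ± 0.24 (SE; adjusted p = 0.908) by the authors' deposited table. Of 7 measured genes known to respond to activin or BMP none passed, 1 had an unadjusted p under 0.05 and the median was 0.29, by the authors' deposited table. In that list, ID3, a BMP-responsive inhibitor of transcription factors, was at 0.43 ± 0.17 (SE; adjusted p = 0.193) and GADD45B at -0.01 ± 0.17 (SE; adjusted p = 0.995) in the authors' deposited table. Over the 66 genes together the median log2 change was -0.03, against 0.01 over all rows with a p. INHBC and CER1, each listed at 0 TPM in a group, are among the 66.

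**Figure D5:**
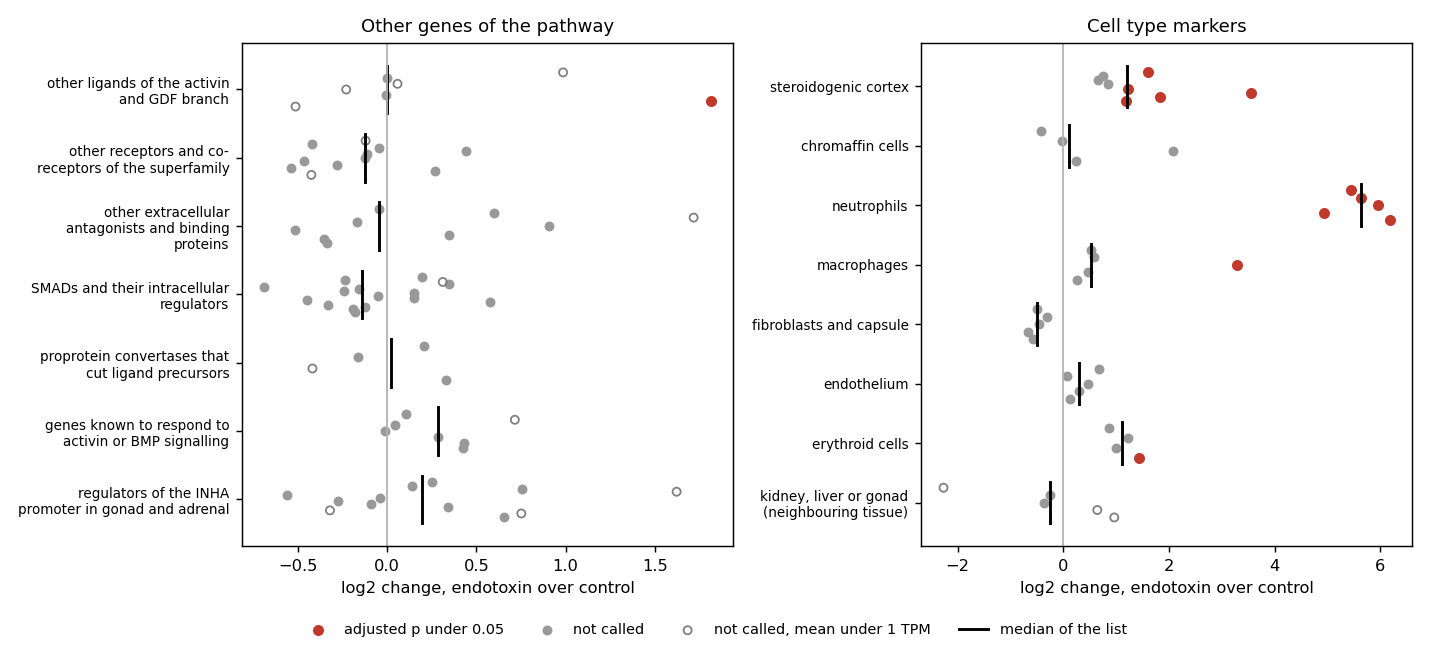
Log2 change, endotoxin over control, of other genes of the pathway (left) and of cell type markers (right), a point per gene with a row in the authors' deposited table; red points have an adjusted p under 0.05, open points are uncalled genes with a mean under 1 TPM, and black lines are medians of the list. INHBE is the red point on the left, and all 5 neutrophil markers and 5 of 8 cortical markers are red on the right, with 1 macrophage and 1 erythroid marker.

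Genes whose products act on the INHA promoter in gonad and adrenal, or on the cAMP pathway ahead of it, were listed as well. Of these 12 genes, all with a row, none passed and 2 had an unadjusted p under 0.05 by the authors' deposited table, and their median log2 change was 0.19. MC2R, the ACTH receptor, was at 0.75 ± 0.30 (SE; adjusted p = 0.212), with 36.9 TPM in the endotoxin group and 23.3 TPM in the control group in the authors' deposited table. NR4A1, an orphan nuclear receptor induced by ACTH, was at -0.56 ± 0.41 (SE; adjusted p = 0.638), with 275 TPM in the endotoxin group and 443 TPM in the control group in the authors' deposited table. NR5A1, or steroidogenic factor 1, was at 0.66 ± 0.24 (SE; adjusted p = 0.146) in the authors' deposited table. MC2R and NR5A1 also stand among the cortical markers below.

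Most cortical markers and all measured neutrophil markers were called higher with endotoxin, and most markers of the other cell types were not called. With a mean per group alone, no marker could be compared with INHA or FSTL3 library by library. The authors' deposited table calls 5 of 8 cortical markers, all higher, and the 8 summed to 7670 TPM in the endotoxin group and 3680 TPM in the control group. The log2 changes of the 8 cortical markers lay between 0.66 for NR5A1 and 3.55 for CYP17A1 by the authors' deposited table. All 5 measured neutrophil markers were called higher in the authors' deposited table, with a sum of 1910 TPM in the endotoxin group and 45.7 TPM in the control group. For macrophages 1 of 5 was called, with a sum of 71.4 TPM in the endotoxin group and 55.1 TPM in the control group, by the authors' deposited table. All 5 macrophage markers were positive and 3 had an unadjusted p under 0.05. For erythroid cells 1 of 4 was called, with a sum of 48.4 TPM in the endotoxin group and 27.0 TPM in the control group, by the authors' deposited table. All 4 erythroid markers were positive and all 4 had an unadjusted p under 0.05. None of 5 fibroblast and capsule markers was called, 0 had an unadjusted p under 0.05 and all 5 were negative, with a sum of 825 TPM in the endotoxin group and 1321 TPM in the control group in the authors' deposited table. Chromaffin markers, none of 4 called and 1 with an unadjusted p under 0.05, summed to 8414 TPM in the endotoxin group and 8872 TPM in the control group in the authors' deposited table. Among them PNMT, which makes adrenaline from noradrenaline, averaged 1307 TPM in the endotoxin group and 329.5 TPM in the control group, with a log2 change of 2.07 ± 0.73 (SE; adjusted p = 0.123) by the authors' deposited table. CHGB, a chromogranin of secretory granules, was the lowest of the 4 at -0.43 ± 0.28 (SE; adjusted p = 0.559) by the authors' deposited table. Endothelial markers, none of 5 called and 1 with an unadjusted p under 0.05, summed to 93.5 TPM in the endotoxin group and 85.1 TPM in the control group in the authors' deposited table. All 5 endothelial markers were positive. The part of cell composition in the values of the members was not tested.

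None of the 98 rows of pathways tested for enrichment, another of the authors' deposited tables, names a member among its changed genes. Only changed genes are named in those rows, so the absence of the members that were not called is no result about them. For TGF-beta signalling the authors' deposited table of pathways counts 2 changed genes of 66, TGFB2 and INHBE, with an unadjusted p of 0.426. The genes that flank the members in the gene order of the sheep assembly ARS-UI_Ramb_v3.0, a pair on each side, were looked up by name. Of 33 such genes with a row 1 was called in the authors' deposited table, where 1.72% of all rows with a p were called. The called gene was FGF22, a fibroblast growth factor gene named after its value was seen, and it lies 2 genes from FSTL3. Whether genes around FSTL3 changed together was not tested. FGF22 averaged 6.86 TPM in the endotoxin group and 2.26 TPM in the control group, with a log2 change of 1.64 ± 0.42 (SE; adjusted p = 0.0120) in the authors' deposited table. RNF126, a ubiquitin ligase gene between them, was at 0.50 ± 0.16 (SE; adjusted p = 0.0643), and PRSS57, on the other side of FSTL3, at 1.38 ± 0.62 (SE; adjusted p = 0.296) by the authors' deposited table. PRSS57 lay under 1 TPM in both groups, at 0.571 TPM in the endotoxin group and 0.236 TPM in the control group. PALM, the gene after PRSS57, was at -0.07 ± 0.20 (SE; adjusted p = 0.967) by the authors' deposited table. The measured genes next to INHA, OBSL1 and, further on, TMEM198 and SLC4A3, had log2 changes of -0.10 to 0.21 by the authors' deposited table.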

How the data were processed

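The labels' protocols name a directional library kit. Oar_v3.1, DESeq2, Salmon 0.9.1 and fastp 0.19.4 appear in the submitters' processing notes, without roles. The authors deposited estimated counts and TPM per library, without symbols, and a table by symbol with group means, a log2 column, standard errors, a score and p-values before and after adjustment, per the file headers. The headers do not name the unit of the means, which was read as TPM from their column sums. The p-values equal those of a normal score, and the adjusted ones are Benjamini-Hochberg over the 19236 rows that have a p. In 80 rows p is set to 1. The deposited log2 column is the log2 ratio of mean TPM plus 1. Its median over rows of at least 1 TPM was -0.10, against 0.01 for the model, a shift of -0.11. The deposited enrichment p-values are unadjusted.

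Changes, intervals (95%, normal) and counts were computed in Python 3.11.15 with pandas 2.3.3. The steps were run on a simulated table with planted changes, which checks their arithmetic and not the values of the members. The members and lists were chosen with earlier results of these data known. No test of a member was run. Libraries are not stated to come from separate ewes. The authors' p-values set the difference between groups against the spread between these libraries. If fetuses shared a ewe, those p-values would not hold for independent pregnancies. The planned edgeR test of members per library was not run, since no IDs were paired with symbols. Genes named are the members, called list genes, and otherwise the highest and lowest of each list with a mean of at least 1 TPM, besides SMAD, GDF11, MSTN, NR5A1, STAR, TH, AMH, FSHR, INHBC, CER1 and neighbouring genes, added for their role, position or level. Marker genes are named to give the range of a list. Thresholds of 0.01 and 0.1, a minimum mean of 1 TPM and other scales of the change were tried.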

Additional observations from a re-analysis of the deposited data

How the results depend on the processing

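INHA and FSTL3 were the members called at an adjusted p of 0.05, at 0.1, and with a minimum mean of 1 TPM. At 0.01 the count of members called was 0. Over all rows the count of 330 became 136 at 0.01 and 554 at 0.1. Among the 66 other genes of the pathway the count of 1 became 0 at 0.01 and 3 at 0.1. On other scales of the change (the authors' log2 column, and group means with a pseudocount of 0.1 or 0.01 TPM) 24 of 27 values of members lay within 1 standard error of the model value. The 3 others were those of ACVR1, between -0.37 and -0.34 against -0.22. FST and TGFBR3, near 0 on the model scale, were negative on all 3 other scales, at -0.10 to -0.08 and -0.08 to -0.07; the median over rows averaging at least 1 TPM shifted by -0.11 on the authors' log2 column, and this shift was not computed for the pseudocounts. No paired analysis was possible because the members have no values per library. For the same reason no library was left out, and the other settings meant for the count table (DESeq2, other size factors, no filter, single libraries left out) were not run.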
